A study of Mus musculus with 9 samples.

Results

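The cytosolic ribosome is built from a large 60S subunit and a small 40S subunit, each made of ribosomal RNA and proteins encoded by single nuclear genes named Rpl (60S) and Rps (40S). The genes were taken from a count table of the mouse retina by a rule on names alone, namely protein-coding rows whose symbol is Rpl or Rps with a number, Rplp0 to Rplp2, or Rpsa. The rule gave 84 of the 55414 genes in the table, 52 of the 60S and 32 of the 40S subunit. All samples were retinas of Balb/c mice, an albino strain, in 3 groups of 3 libraries. These were controls, a light damage group in which light had been used to injure the retina, and a group with the light damage model and A74. What A74 is, its dose and vehicle, the light exposure, and the age and sex of the animals are not spelled out in the labels. The title of the series names inhibition of P2RX7, a channel opened by extracellular ATP. No label ties the libraries of a group to separate animals. The p-values below therefore set a group difference only against the spread among these libraries, and part of that spread may be technical.

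Ribosomal proteins are made in matched amounts in most growing cells. Their mRNAs share a start with a C and a run of pyrimidines (5′ terminal oligopyrimidine, or TOP), through which mTORC1 signalling controls their translation, and mRNA abundance is therefore only a part of their regulation. Single ribosomal proteins also have known roles of their own, and loss of Rpl38 in mice disturbs patterning of the skeleton. The question here was whether the genes moved together or singly between the groups.

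Of the 84 genes, 64 had an entry in a table of RefSeq promoters (build GRCm38.p6), with 76 promoters in all. Of these promoters 13 (17.1%) had a C at the annotated start followed by at least 4 pyrimidines, against 2.51% of all 32851 promoters in the table. The letters CGGAAG, on either strand of the window from 250 bases before to 50 after the start, were found in 46 of the 76 (60.5%) and in 16.9% of all promoters. The following 6 starts are shown because the genes carry the same kind of start and had a range of log2 fold changes with light, and capitals mark the pyrimidine run that begins at the annotated start, with 20 bases on each side of that point.
Rpl38, chr11:114668560-114668599, plus strand: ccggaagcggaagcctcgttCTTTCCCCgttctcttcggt
Rpl35, chr2:39005112-39005151, minus strand: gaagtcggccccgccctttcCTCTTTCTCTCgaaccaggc
Rps21, chr2:180257359-180257398, plus strand: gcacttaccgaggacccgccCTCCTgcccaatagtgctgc
Rps27, chr3:90213629-90213668, minus strand: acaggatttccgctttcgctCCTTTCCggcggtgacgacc
Rps6, chr4:86857348-86857387, minus strand: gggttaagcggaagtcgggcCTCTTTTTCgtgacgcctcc
Rpl35a, chr16:33056462-33056501, plus strand: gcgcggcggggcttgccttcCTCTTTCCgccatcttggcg
Among the 13 genes with such an annotated start, log2 fold changes of light damage against control ran from −0.06 (Rps18) to 0.99 (Rpl38). Some of these rows share reads with near-identical copies of the gene. With the copies added, Rps18 had 0.07 (SE 0.09), Rpl35a 0.26 (SE 0.10) in place of 0.07, and Rps10 0.46 (SE 0.08) in place of 0.23, and of these Rps10 was called. These letters are a description of the sequence, not a measured site. Pyrimidine runs that began with T at the annotated start were not counted, and the starts in use were not measured.

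The libraries held 14787972 to 18740434 counts. Listed rod photoreceptor genes, which mark the retina, summed to 44400 CPM or more in every library, where CPM is the usual count scaled to library size. Libraries also differed within groups. Y-linked transcripts were present in replicates 1 and 2 of control and of light damage and had 0 counts in the other 5 libraries, Xist was high in control replicate 3 and in the 3 A74 libraries, and a list of anterior eye tissue genes was high in 5 libraries (138 to 275 CPM) and low in 4 (12.5 to 15.9 CPM). Neither Y-linked transcripts nor more than 1 count of Xist were found in light damage replicate 3, and the labels do not explain this. Of the 84 genes, 80 passed a filter on low counts and were tested among 17272 genes, and Rpl3l, Rpl10l, Rpl36al and Rpl39l did not.

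Ribosomal protein mRNA was lowest in control and highest after light damage, and the groups did not overlap. The genes summed to 9068, 9270 and 8013 CPM in the 3 control libraries, to 10448, 11363 and 10361 CPM after light damage, and to 10062, 10019 and 9788 CPM with A74. Both subunits followed this order. The 60S genes summed to 4585 to 5301 CPM in control, 5954 to 6521 CPM after light damage and 5610 to 5775 CPM with A74, and the 40S genes to 3428 to 3969, 4393 to 4842 and 4178 to 4309 CPM. The genes took 0.789% to 0.893% of all counts in control, 1.05% to 1.17% after light damage and 0.977% to 1.00% with A74.

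Most single genes followed the sum. Of the 80 measured genes, 68 had their lowest mean in control, an intermediate mean with A74 and the highest after light damage. The number of genes above their own mean over the 9 libraries was 9, 11 and 3 in the control libraries, 63, 75 and 68 after light damage, and 57, 65 and 44 with A74. Control replicate 3 was the lowest library and light damage replicate 2 the highest. In bulk retina, fewer cells of a type and less RNA per cell cannot be told apart.

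**Figure D1:**
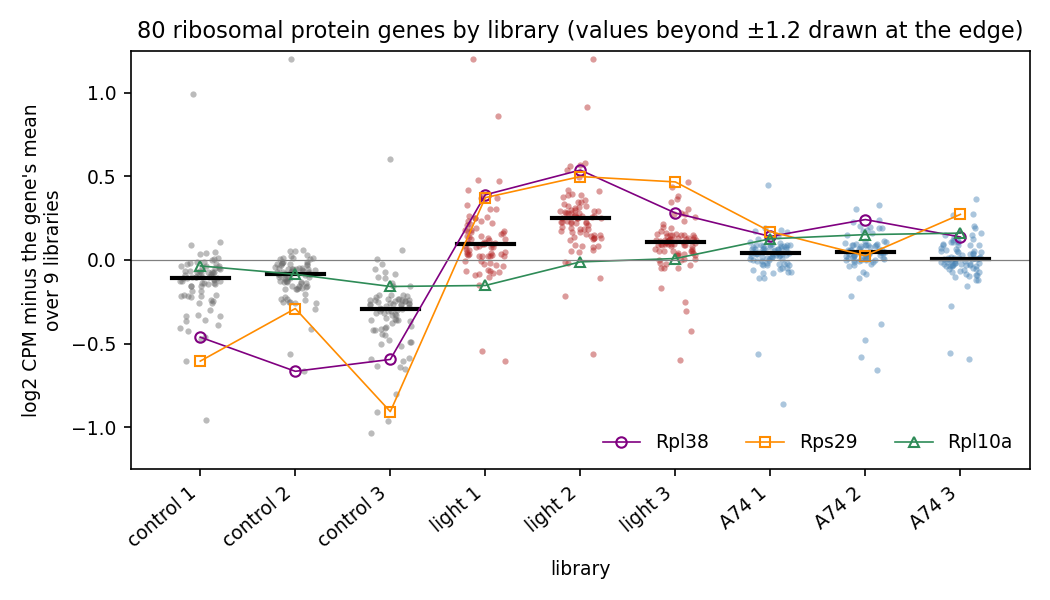
Each point is 1 of 80 ribosomal protein genes in 1 library, drawn as log2 CPM minus the gene's mean over the 9 libraries, with black bars for the library's median and lines for Rpl38, Rps29 and Rpl10a. The median deviation lies between −0.293 and −0.086 in control, between 0.098 and 0.249 after light damage and between 0.005 and 0.044 with A74, while Rpl10a stays near its mean in control and light damage.

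Light damage was first compared with control. Of the 80 measured genes 59 were higher after light damage, or 73.8%, where 13.0% of all genes tested were higher. None was lower by edgeR's quasi-likelihood test (12.8% of all genes were lower). There were 0 lower also at an unadjusted p under 0.05 and by DESeq2. The median log2 fold change was 0.303, against 0.008 over all genes. In 59 genes all light damage libraries were above all control libraries, as in 20.6% of all genes. The subunits were alike, with 34 of 48 measured 60S genes and 25 of 32 40S genes higher, and medians of 0.302 and 0.303. With a test that asks for more than a 2-fold change edgeR called none of the 80, nor any at an unadjusted p under 0.05, where 0.469% of all genes were called as higher and 0.0116% as lower, so this count is near that of all genes.

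Genes of short proteins were among those with the largest rises. Rpl38, a 60S protein of 70 residues, was at 14.0, 12.1 and 12.7 CPM in control, at 25.3, 28.1 and 23.5 CPM after light damage and at 21.3, 22.9 and 21.3 CPM with A74. All libraries of both light groups lay above all controls, and those of A74 lay below those of light damage alone. Rpl38 rose 1.98-fold with light damage (log2 fold change 0.99, SE 0.10, adjusted p = 1.2e-05). Rps29, a zinc-binding 40S protein, was at 17.7, 22.1 and 14.4 CPM in control, at 35.0, 38.2 and 37.4 CPM after light damage and at 30.4, 27.5 and 32.7 CPM with A74. Its 3 groups did not overlap either, and it rose 2.04-fold with light damage (log2 fold change 1.03, SE 0.12, adjusted p = 7.1e-05). Rps21, of the 40S subunit, went from 34.1, 37.9 and 30.2 CPM in control to 54.3, 60.3 and 57.7 CPM after light damage. That was a log2 fold change of 0.75 (SE 0.08, adjusted p = 2.2e-05), again without overlap. Rpl35, which lies at the exit of the tunnel for the nascent chain, went from 38.2, 40.2 and 30.6 CPM to 59.6, 64.3 and 61.9 CPM, a log2 fold change of 0.77 (SE 0.10, adjusted p = 7.7e-05). Rpl39, which lines that tunnel, rose by 0.91 (SE 0.17, adjusted p = 0.00502) from controls that were themselves spread between 16.6 and 29.7 CPM.

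**Figure D2:**
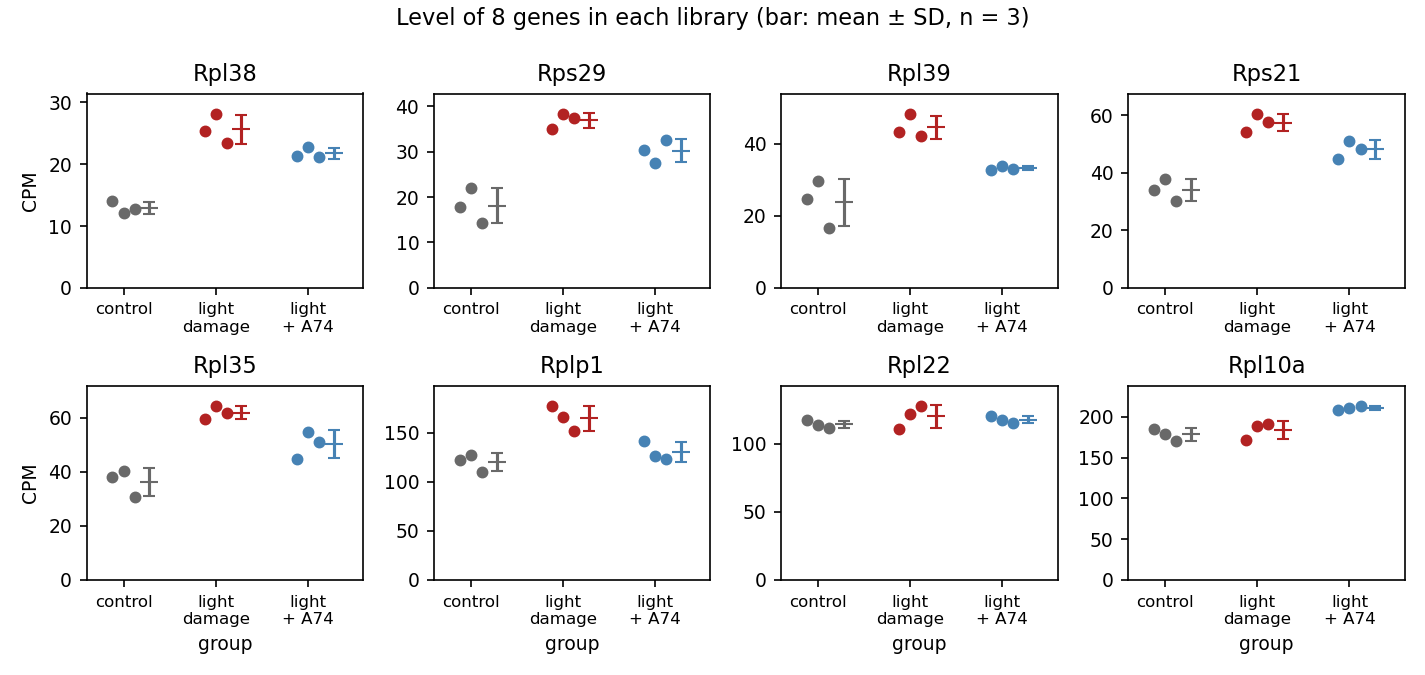
Points are the CPM of 8 genes in each library of the 3 groups, and bars are the mean and SD of 3 libraries. Rpl38, Rps29, Rpl39 and Rps21 show 3 separate groups with control lowest, Rplp1 overlaps between control and A74, and Rpl22 and Rpl10a overlap between control and light damage.

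The stalk proteins Rplp0, Rplp1 and Rplp2 recruit translation factors to the 60S subunit. Rplp1 was at 122.6, 127.4 and 109.4 CPM in control and at 176.7, 166.4 and 151.4 CPM after light damage, a log2 fold change of 0.46 (SE 0.07), and Rplp2 rose by 0.46 (SE 0.09). Rplp0 had the largest called log2 fold change of all, 1.20, but with an SE of 0.32 (adjusted p = 0.0381), and its counts were shared with a copy described below. That call was lost without any one of the control libraries, of light damage replicates 1 and 2 or of A74 replicates 2 and 3. Rps6, the 40S protein phosphorylated by S6 kinases, was at 217.3, 222.4 and 204.9 CPM in control and at 241.0, 265.4 and 248.2 CPM after light damage. This was a rise of 1.17-fold (log2 fold change 0.23, SE 0.06, adjusted p = 0.00806). Rpsa, also known as a laminin receptor, rose 1.18-fold (log2 fold change 0.23, SE 0.07, adjusted p = 0.0301), a call that was lost without control replicate 3 or light damage replicate 2 (log2 fold changes 0.16 and 0.20). Further rises had log2 fold changes of 0.61 (Rpl31), 0.59 (Rpl37a) and 0.48 (Rpl23), each with no overlap between groups.

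Of the 80 genes 21 were not called in this comparison, and some of them are described here. Rpl10a, a protein at the side stalk of the 60S subunit, was at 185.5, 179.2 and 170.3 CPM in control and at 171.1, 188.6 and 191.3 CPM after light damage. These groups overlapped, with a log2 fold change of 0.04 (SE 0.06, adjusted p = 0.641). Rpl22, a 60S protein also known for a role in T cell development, was at 117.3, 114.1 and 111.7 CPM in control and at 111.1, 122.0 and 127.6 CPM after light damage, with a log2 fold change of 0.07 (SE 0.06, adjusted p = 0.404). The SE of both genes was as small as that of many genes that rose. Rpl4, Rpl8 and Rps23 were not called either, with log2 fold changes of 0.09 (SE 0.06), 0.06 (SE 0.07) and 0.04 (SE 0.07). Rpl21, Rpl24 and Rps18 had log2 fold changes below 0, namely −0.28 (SE 0.72), −0.24 (SE 0.29) and −0.06 (SE 0.11), and none passed the test. These 3 rows share reads with copies, and the row of Rpl24 held only 25 to 49 counts in a library. The row of Rps18 held 31.7% to 40.8% of the sum with its 4 copies, and with copies added the log2 fold changes were −0.34 (SE 0.72) for Rpl21, −0.05 (SE 0.22) for Rpl24 and 0.07 (SE 0.09) for Rps18, which turned its sign.

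**Figure D3:**
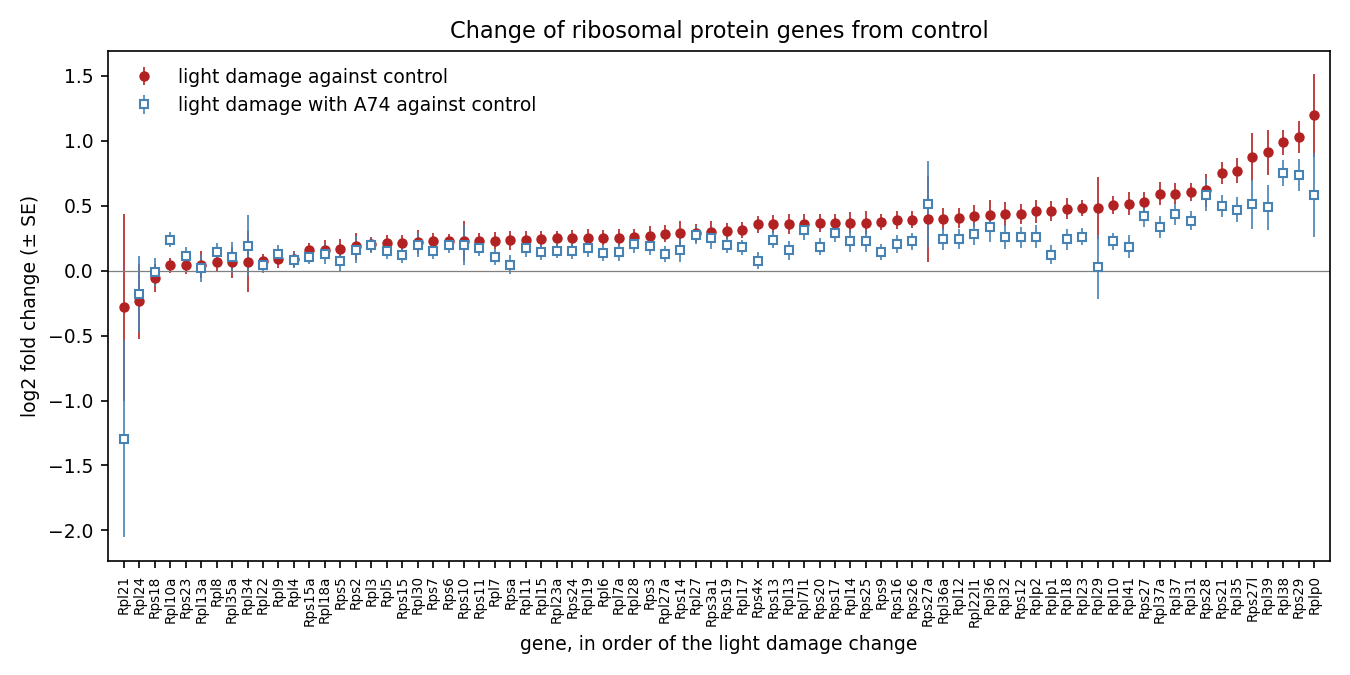
Log2 fold changes with SE of most measured ribosomal protein genes against control, ordered by the light damage value, for light damage (filled circles) and for light damage with A74 (open squares), and Rpl26 (3.21, SE 1.45) is left out for scale. Most genes lie between 0 and 0.5 in both comparisons, Rpl38 and Rps29 are near 1 after light damage and near 0.75 with A74, and both comparisons share the control libraries.

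To ask which genes moved apart from the rest, the libraries were rescaled on the 80 measured genes alone, so that a log2 fold change is relative to the typical ribosomal protein gene. In light damage against control, 13 of the 80 were then higher than the rest and 8 lower. On this scale 3.71% of all genes tested were higher and 42.2% lower. Relative log2 fold changes were 0.74 for Rps29 (SE 0.12, adjusted p = 3.4e-05), 0.68 for Rpl38 (SE 0.12, adjusted p = 8.3e-05), 0.62 for Rpl39, 0.47 for Rpl35 and 0.46 for Rps21. Rps27l, Rpl31 and Rpl37a were higher too, with 0.58, 0.31 and 0.30. Rpl38 was thus 1 of a group of genes that rose by more than the rest, and it did not move singly. Without control replicate 1 the 21 genes became 10. The 8 genes that were lower relative to the rest included Rps18 (−0.36), Rpl10a (−0.26), Rps23 (−0.25), Rpl8 (−0.23), Rpl22 (−0.23) and Rpl4 (−0.21). With copies added to the genes Rps18 was no longer called on this scale (−0.24, SE 0.11, adjusted p = 0.067), while Rpl10a, Rps23, Rpl8, Rpl22 and Rpl4 stayed called, where 43.6% of all genes were lower.

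With A74, levels lay between control and light damage for most genes, but few single genes passed the test against light damage. Of the 80 measured genes 10 (12.5%) fell below the level of light damage alone, where 9.19% of all genes were lower. 1 gene was higher, where 9.07% of all genes were. The share called as lower is near that of all genes. In 37 of the 80 all A74 libraries lay below all light damage libraries, as in 17.7% of all genes. The reverse held in 1, as in 17.5% of all genes. At an unadjusted p under 0.05 by edgeR, 24 of the 80 were lower and 1 higher. Of all 17272 genes 2730 were lower and 2857 higher at that threshold. The median log2 fold change was −0.111 against 0 over all genes, and 70 of the 80 were below 0. The 10 genes included Rplp1, at 141.9, 126.7 and 122.9 CPM with A74 against 176.7, 166.4 and 151.4 CPM in light damage, a log2 fold change of −0.34 (SE 0.07, adjusted p = 0.00545). They also included Rps4x (−0.28), an X-linked 40S gene, Rpl10 (−0.28), which joins the 60S subunit late in its assembly, Rps9 (−0.23), Rpl41 (−0.33) and Rpl23 (−0.22). Rpl38 was not called, with a log2 fold change of −0.23 (SE 0.10, adjusted p = 0.102), although its A74 libraries all lay below those of light damage, and it passed the test without light damage replicate 3 (−0.29).

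Rpl10a was the gene that was higher with A74. It was at 207.6, 211.2 and 212.6 CPM with A74 against 171.1 to 191.3 CPM after light damage and 170.3 to 185.5 CPM in control, and the A74 libraries lay above all 6 others. The log2 fold change of A74 against light damage was 0.20 (SE 0.06, adjusted p = 0.0268), and 0.24 (SE 0.06, adjusted p = 0.0625) against control. Relative to the other ribosomal protein genes, 2 genes were higher with A74 than with light damage, among them Rpl10a by 0.31 (adjusted p = 0.00898), and none was lower (13.9% and 4.58% of all genes on this scale). With copies added, Rplp0 was lower on this scale (−0.30, SE 0.09, adjusted p = 0.0239), where 4.60% of all genes were lower. Without the copies 4 of the 80 were higher and 5 lower at an unadjusted p under 0.05. Of all 17272 genes 4242 were higher and 1283 lower at that threshold. Fewer than 2 genes were called on this scale without control replicate 1, light damage replicate 1 or 2, or any A74 library, and 5 without control replicate 3 or light damage replicate 3.

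The comparison of A74 with light damage was sensitive to single libraries and to the Y-linked transcripts. The 11 calls became 2 without light damage replicate 2, 7 without control replicate 1, and 5 without A74 replicate 1, 2 or 3. All 3 A74 libraries lacked Y-linked transcripts, which 2 of 3 light damage libraries had. DESeq2, without such a term, called 1 higher and 9 lower, where it called 1459 of all 17272 genes as higher and 1441 as lower. With those transcripts as a term in the fit, edgeR called none of the 80 genes, and the median log2 fold change was −0.025. At an unadjusted p under 0.05 that fit had 3 of the 80 higher and 6 lower. Of all 17272 genes 1803 were higher and 1647 lower at that threshold. Over all genes that fit called 1.95% as higher and 2.36% as lower, so the count of 0 is near the share of all genes. Because the term largely follows these 2 groups, the fit cannot separate it well from A74.

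A74 with light damage was then compared with control. Of the 80 measured genes 8 were higher with A74, where 0.591% of all genes tested were higher, and 0 were lower (0.301% of all genes). There were also 0 lower at an unadjusted p under 0.05 and by DESeq2. The median log2 fold change was 0.192, against −0.002 over all genes, and 76 of the 80 were above 0. In this comparison Rpl38 had the smallest adjusted p of the 80, with a log2 fold change of 0.75 (SE 0.10, adjusted p = 0.00168). Rps29 followed in size with 0.74 (SE 0.12, adjusted p = 0.0147), Rps28 with 0.58 (SE 0.13), Rps21 with 0.49 (SE 0.08), Rpl35 with 0.47 (SE 0.10), Rpl37 with 0.43 (SE 0.08), Rps27 with 0.42 (SE 0.08) and Rpl31 with 0.39 (SE 0.07). Relative to the other ribosomal protein genes, Rpl38 (0.56), Rps29 (0.56), Rps28 (0.40) and Rps21 (0.31) were higher, where 0.232% of all genes were higher and 11.8% lower. The named genes Rplp1 (0.12, SE 0.07), Rps6 (0.20, SE 0.06) and Rpsa (0.05, SE 0.07) did not pass the test.

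The count of 8 also rested on single libraries. It was 1 without control replicate 1, 5 without control replicate 2, 3 without control replicate 3, 2 without A74 replicate 2 or 3, and 14 without light damage replicate 1 or 3, which are in neither of the groups compared. It was 30 with no count filter and 21 when the 2 groups were fitted alone. The share of all genes called in these fits is not given here. The 4 genes called relative to the rest became 2 without control replicate 1 or 3 and 1 without A74 replicate 2 or 3. Light damage against control and A74 against control share the control libraries, and control replicate 3 was the lowest in ribosomal protein mRNA.

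The size of the light change followed the length of the encoded protein, in ribosomal protein genes and in other genes. All 10 measured genes of proteins under 100 residues were higher after light damage, with a median log2 fold change of 0.685. From 100 to below 150 residues 22 of 28 were higher (median 0.369), from 150 to below 200 residues 11 of 19 (0.248), and from 200 to below 300 residues 14 of 20 (0.237). Other protein-coding genes had the same order at lower values, with medians of 0.211 under 100 residues (35.9% higher), 0.176, 0.143 and 0.110 in the next 3 classes and −0.051 at 500 residues or more (8.53% higher). Spearman's rho between coding length and log2 fold change was −0.48 over the 80 genes and −0.28 over 14124 other protein-coding genes, where the genes share the same libraries and are not independent. Against control with A74, the 10 shortest genes had a median of 0.491 and 6 of the 8 calls.

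**Figure D4:**
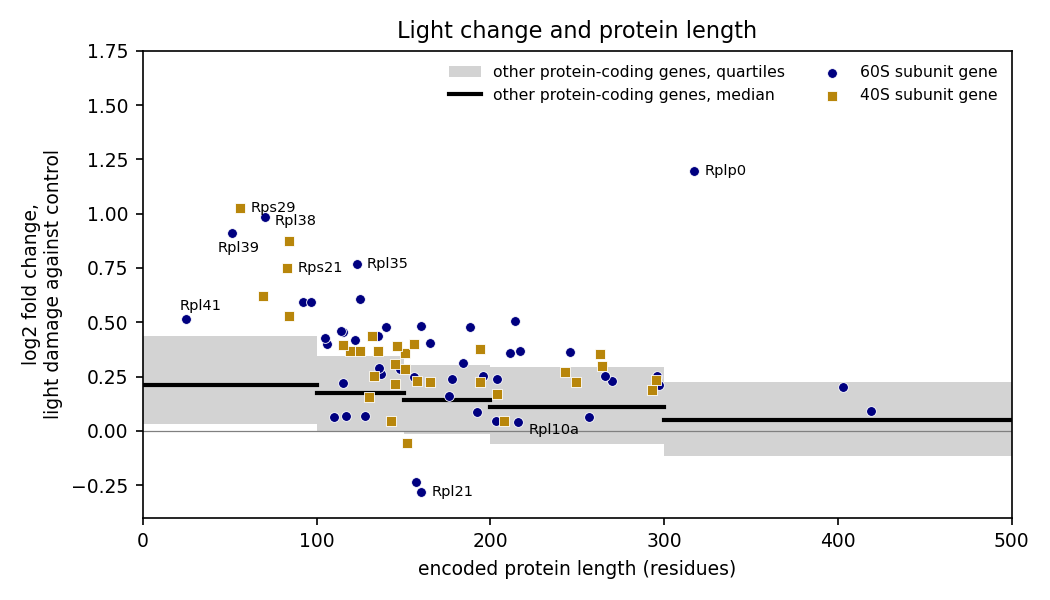
Log2 fold change of light damage against control by encoded protein length for 79 measured ribosomal protein genes (circles for 60S, squares for 40S), with the median (line) and quartiles (grey) of other protein-coding genes in 5 length classes. Points for proteins under 100 residues lie above 0.5 while the median of other genes of that class is 0.211, and Rpl26 (3.21) is left out for scale.

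With library offsets that remove the trend of other genes with coding length, 36 of the 80 genes remained called as higher in light damage (10.6% of all genes), and the median log2 fold change was 0.186. Rpl38 then had 0.77 (SE 0.10), Rps29 0.79 (SE 0.10), Rps21 0.55 (SE 0.07) and Rpl35 0.61 (SE 0.08), each still called. Rpsa and Rps6 lost their calls (log2 fold changes 0.16 and 0.13). In A74 against light damage 4 genes were lower on this scale and 1 higher, where 9.02% of all genes were lower and 8.89% higher, so the share lower was below that of all genes. In A74 against control 6 were higher, where 0.342% of all genes were. Whether the length trend is a property of the libraries or of the tissue was not tested.

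Ribosomal protein genes have many processed copies in the genome, and reads can be split between a gene and its copies. In the GENCODE annotation of build GRCm38, 476 rows outside the 84 genes shared at least 20% of their 50-base words with one of 77 of them. Rpl26 is the clearest case, and its closest copy Gm15772 is shown beside it. The 2 coding sequences are identical at 99.5% of 435 bases, and differ by C177T and T288C (the base of Rpl26, the position from the first base of the coding sequence, and the base of the copy). The stretch from coding base 147 to 206 holds the first difference, in capitals.
Rpl26, coding bases 147 to 206: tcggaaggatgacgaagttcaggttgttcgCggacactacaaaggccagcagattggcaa
Gm15772, chr5:3236577-3236636, plus strand: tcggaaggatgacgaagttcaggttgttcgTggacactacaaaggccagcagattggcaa
Rpl26 had 1633 counts in light damage replicate 1 and 42 to 69 in the other 8 libraries. Gm15772 had 1825 counts in that library and 2460 to 4624 in the others. The log2 fold change of Rpl26 in light damage, 3.21 (SE 1.45, adjusted p = 0.167), therefore rested on 1 library. With copies added to the gene it was 0.25 (SE 0.07), and with that sum Rpl26 was called as higher.

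Rpl34 and Rplp0 also shared reads with copies unevenly between libraries. Rpl34 and its copy Rpl34-ps1 each had 539 counts in light damage replicate 1, while the copy had 61 to 110 counts elsewhere. The log2 fold change of Rpl34 was 0.07 (SE 0.23) alone and 0.29 (SE 0.08) with the copies added. Rplp0 had 2420, 2908 and 1181 counts after light damage and 762 to 900 in control, and with the copies added its log2 fold change was 0.71 (SE 0.10) in place of 1.20. A pair of further genes varied widely within groups without an exchange of reads with their copies. Rps27a, which is made as a fusion with ubiquitin, had 859 counts in control replicate 1 against 1684 and 1995 in the other controls, and it was not called (log2 fold change 0.40, SE 0.33). With its copies added that library was still low, at 70.0 CPM against 126.4 and 117.2 CPM, and the log2 fold change was 0.40 (SE 0.29). Rpl21, with 44 copies, ranged from 108 to 659 counts with no order by group. The counts of its copies were 464, 528 and 118 in control and 172, 642 and 164 after light damage, high in the same libraries of these groups as the gene. With A74 the copies had 163, 129 and 339 counts and the gene 135, 142 and 130. In A74 replicate 3 the copies were thus higher without a rise of the gene. For Rpl38 the gene's own row held 89.0% to 92.5% of the sum with its 3 copies, and its log2 fold change was 1.02 (SE 0.10) with them. With copies added, 81 ribosomal protein genes were measured, and 61 were higher in light damage (13.0% of all genes). For A74 against light damage 1 was higher and 11 lower (9.13% and 9.32% of all genes), and for A74 against control 7 were higher (0.583%).

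**Figure D5:**
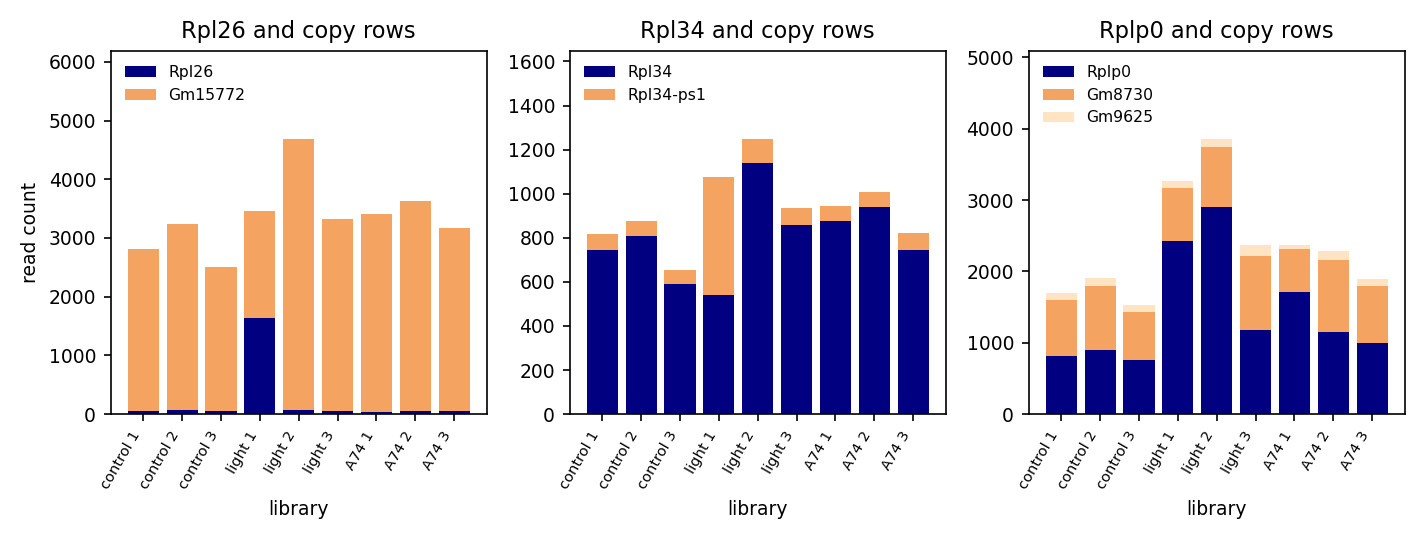
Stacked read counts per library of Rpl26, Rpl34 and Rplp0 (dark) with rows of near-identical copies (light). In light damage replicate 1 Rpl26 holds 1633 counts that lie with Gm15772 in the other libraries, Rpl34 and Rpl34-ps1 each hold 539, and Rplp0 holds 2420 and 2908 counts in light damage replicates 1 and 2.

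The paralogs fell into expressed and nearly silent genes. Rpl3l, a form of striated muscle, had at most 6 counts in a library, Rpl10l and Rpl39l, known from the testis, at most 1 and 2, and Rpl36al at most 13. Rps27l, a p53 target, was expressed and rose by a log2 fold change of 0.87 (SE 0.18, adjusted p = 0.00396), from 9.54, 10.01 and 5.46 CPM in control to 15.8, 16.8 and 13.3 CPM after light damage, with 10.5, 13.0 and 12.2 CPM with A74. Rpl22l1, the paralog of Rpl22, rose by 0.42 (SE 0.08, adjusted p = 0.0018), while Rpl22 itself was not called. Whether the 2 differ was not tested. Rpl7l1, a paralog of Rpl7, rose by 0.36 (SE 0.07, adjusted p = 0.00222), from 43.0 to 47.9 CPM in control to 53.9 to 64.5 CPM after light damage. Rps4l is a transcribed pseudogene in the table and was not counted among the 84.

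The genes whose levels followed Rpl38 most closely over the 9 libraries were, outside the ribosomal protein genes, Fabp3, a fatty acid binding protein (Pearson r = 0.988), Junb, an immediate early transcription factor (0.976), Gm7993 (0.973), Slc35a4 (0.972) and Lsm1 (0.972). Among ribosomal protein genes these were Rpl7l1 (0.949), Rpl31 (0.944), Rps21 (0.939), Rpl37 (0.926) and Rps27 (0.926). These values describe 9 libraries that also share the group difference, and the genes were chosen for the highest values of r. Junb rose by a log2 fold change of 1.41 (SE 0.13) in light damage against control and by 0.97 (SE 0.13) in A74 against control, and Fabp3 had 0.44 (SE 0.10) and 0.34 (SE 0.10, not called).

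Other lists of translation genes had lower medians in light damage than the ribosomal protein genes, and this difference was not tested. Of all genes tested 13.0% were higher and 12.8% lower in this comparison. Of 18 other genes with TOP mRNAs 7 were higher in light damage, with a median log2 fold change of 0.121. Among them Eef1b2, an elongation factor subunit, rose by 0.51 (SE 0.07) and Tpt1 by 0.48 (SE 0.07). Fau, whose product is a ubiquitin-like fusion with the 40S protein S30, rose by 0.31 (SE 0.08, adjusted p = 0.0149). Of 30 translation initiation factors 7 were higher (median 0.093), and of 40 genes of ribosome biogenesis 2 were higher and 1 lower (median 0.069). Of 17 regulators in the mTORC1 and Myc group, 3 were higher and 4 lower. Eif4ebp1, a repressor of translation initiation that mTORC1 phosphorylates, rose by 1.51 (SE 0.45), and Myc by 1.24 (SE 0.34). The level of Eif4ebp1 was low, at 0.71, 0.60 and 0.54 CPM in control. After light damage it was at 2.65, 1.82 and 0.79 CPM, so light damage replicate 3 was close to control. Mtor and Rps6kb1, a kinase of Rps6, had −0.23 (SE 0.06) and −0.25 (SE 0.06). The mitochondrial ribosomal proteins, which serve a separate ribosome, had 17 of 77 higher (median 0.160). The respiratory chain and ATP synthase subunits, many of which are short, had 42 of 72 higher (58.3%) and 1 lower, with a median of 0.252.

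In A74 against light damage, 4 of the 18 other TOP genes were lower, where 9.19% of all genes were. Of 40 biogenesis genes 6 were higher, where 9.07% of all genes were, among them Rrp1b by 0.37 (SE 0.07). The medians were 0.016 and 0.111. The biogenesis genes thus had a median above 0 where that of the ribosomal protein genes was −0.111, and the difference between these lists was not tested.

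Marker genes of several cell types also moved in light damage against control, where 13.0% of all genes were higher and 12.8% lower. Of 20 rod photoreceptor genes 14 were lower in light damage (median log2 fold change −0.516), and their sum was 74400 to 81200 CPM in control, 44400 to 64000 CPM after light damage and 72100 to 75900 CPM with A74. Of 18 microglia and macrophage markers 15 were higher, and their sum was 91.8 to 102 CPM, 257 to 442 CPM and 98 to 132 CPM. Of 10 Müller glia markers 9 were higher, with sums of 5220 to 5960, 6710 to 7460 and 5230 to 5800 CPM, and all 12 genes of reactive gliosis were higher, with 326 to 392, 850 to 1220 and 335 to 364 CPM. All genes of these 4 lists passed the count filter, so none was at 0. The ranges of control and A74 overlapped in these 4 lists. The amacrine and ganglion cell list and the respiratory chain list had the order of the summed ribosomal protein mRNA, with A74 between the other groups and no overlap. The amacrine and ganglion cell markers, of which 7 of 12 were higher in light damage, summed to 1720 to 1820 CPM in control, 1910 to 2130 CPM after light damage and 1840 to 1880 CPM with A74. The respiratory chain and ATP synthase subunits summed to 5520 to 6120, 6490 to 6820 and 6180 to 6310 CPM. Of 9 endothelial and pericyte markers 1 was higher, with sums of 345 to 378, 483 to 610 and 367 to 378 CPM, and here control and A74 overlapped. Further lists had another order. Of 8 bipolar cell markers 5 were higher in light damage, with sums of 1680 to 1770, 1770 to 1860 and 1500 to 1630 CPM, so A74 lay below control. The mitochondrial ribosomal proteins summed to 1900 to 2000, 2090 to 2210 and 2110 to 2250 CPM, with light damage and A74 overlapping. The part of these cell types in the ribosomal protein change was not tested.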

How the data were processed

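RNA sequencing of 9 mouse retina libraries was used, in 3 groups of 3 named by the sample titles. Counts per gene were deposited by the authors in a single table of whole numbers, whose totals differ between libraries as unnormalised counts do. Per the submitters' processing notes, RSEM 1.3.1, Bowtie2, DESeq2 1.4.5 and GRCm39 were used, with no roles named. Rounding, strand use and the annotation release: not given in the sources used here. RSEM-like estimates can move reads between near-identical genes.

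The filter was filterByExpr of edgeR 4.0.16 (R 4.3.3) at 10 counts. TMM-scaled counts entered the robust quasi-likelihood test in 1 fit of the 9 libraries, with Benjamini-Hochberg adjustment over all 17272 genes. All adjusted p-values come from this edgeR test, and those under 0.05 count as called. SE is the log2 fold change over the square root of F. Log2 CPM used a prior count of 2. Relative values came from the same fit with TMM factors from the ribosomal protein genes alone. Coding lengths and copies came from GENCODE transcripts of GRCm38, so no position was matched to the counts. The script was tested on simulated data.

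The genes, lists and tests were chosen with earlier results of these data known. Genes were named by a rule: 9 chosen genes and the paralogs in every comparison, the 6 called genes with the smallest adjusted p in each direction, the 4 largest and 4 smallest log2 fold changes, the 8 smallest adjusted p relative to the rest, up to 3 called genes of each list with Fau, and the 5 genes most like Rpl38. Some genes are not reported here, in text or in the plot of ordered changes. Rpl4, Rpl8, Rps23, Rps10, Rpl35a, Eif4ebp1 and the copy-affected Rpl34 were named after their values were seen, as was Rpl35 in A74 against control.

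Replicate numbers come from the titles, while the library names number the light damage and A74 libraries otherwise. No label pairs libraries of different groups. Deviations from the group means correlated at 0.116, 0.246 and 0.311 for same-numbered control and light damage libraries. Control replicate 2 and light damage replicate 1, of unlike number, gave 0.127. Same-numbered A74 libraries gave −0.093 to 0.137. The numbers entered a replicate block among the alternatives, and the main tests used no pairing. Replicates of a group differed by more than sampling noise (chi-square per gene 2.53 to 15.8). Depth was 14787972 to 18740434 counts per library. Alternatives were other scaling, DESeq2 1.42.0, no filter, a 2-fold minimum, the compared groups alone, a replicate block, terms for Y-linked transcripts and for anterior tissue, and leaving out libraries. Summing copies and scaling by coding length were chosen after seeing the data.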

Additional observations from a re-analysis of the deposited data

How the results depend on the processing

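The rise in light damage held its direction in every alternative that was run. Of the 80 measured genes 59 were called, 43 to 60 when 1 library at a time was left out (lowest without control replicate 3), 36 with scaling by coding length, and 0 with a 2-fold minimum. The median log2 fold change was 0.303, with a range of 0.26 to 0.345 on leaving out libraries, and 0.186 with scaling by coding length. Counts relative to the other ribosomal protein genes were 21, 2 and 4 in the 3 comparisons, with ranges of 10 to 20, 0 to 5 and 1 to 5 on leaving out libraries.

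The calls with A74 were less stable. The 11 calls against light damage became 17 with upper-quartile factors, 7 with tissue set as a term, 5 with scaling by coding length, and 0 with Y-linked transcripts as a term (median −0.025) or with a 2-fold minimum, and 2 to 15 on leaving out libraries, with medians of −0.14 to −0.072. The 8 calls against control became 30 with no count filter, 21 with the 2 groups alone, 18 with Y-linked transcripts as a term, 16 without light damage replicate 3 and A74 replicate 1 together, 13 with DESeq2 and 0 with a 2-fold minimum, and 1 to 14 on leaving out libraries, with medians of 0.133 to 0.228. Relative to the other genes, A74 against light damage had 1 call when scaled on the genes' summed count. With the 2-fold minimum edgeR gave 0 genes at an unadjusted p under 0.05 in each comparison. In A74 against control, the main test called 102 of all 17272 genes higher and 52 lower. DESeq2 called 143 and 121, and the fit with Y-linked transcripts as a term 63 and 33. With upper-quartile factors, no count filter, the 2 groups alone or libraries left out, shares over all genes are not given here. The same holds for the tissue term and the replicate block, so those counts have no background beside them. The cause of the differences between alternatives was not tested.

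With the replicate number as a block, 58, 15 and 8 genes were called in light damage against control, A74 against light damage and A74 against control. Relative to the other genes the block gave 24, 6 and 8 calls. It changed no call of a named gene on the common scale. Libraries of different groups share only a number in the labels. For single named genes no alternative reversed a called direction. Of their values, 1308 kept their direction and side of the threshold, 97 lost a call, 30 gained one, and 39 changed sign without being called. Depth limits Rpl3l, Rpl10l, Rpl36al and Rpl39l, whose counts were too low to test.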
